A study of Homo sapiens with 8 samples.

Results

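SH-SY5Y cells, a long-established line from a human neuroblastoma, keep a noradrenergic, neuron-like identity, and maleic acid is a small unsaturated dicarboxylic acid. Cells were exposed for 24 h to maleic acid at 10 or 50 μM, here called the middle doses, and are set against untreated control cells and cells exposed to 100 μM, here called the outer doses. The comparison took 4 of the 8 arrays of the series against the other 4, and it asks which transcripts were lower or higher at the middle doses than at both ends of the dose range. A probe was called a dip when each of the 4 middle arrays lay below each of the 4 outer arrays, and a peak when each lay above. Such patterns escape a dose trend and a contrast of the highest dose with the control.

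Each dose had 1 RNA sample on a pair of technical arrays, so each side held 2 RNA samples and no separate culture was repeated. The arrays were Human Whole Genome OneArray slides with 31741 probes and a single dye, Cy5. Values are log2 intensities after quantile normalization, which gives all arrays the same distribution, and a normalized intensity of 50 was taken as the level of background. Of the markers checked, the noradrenergic ones had a median log2 level of 14.75, and those of blood, epithelium, fibroblasts, glia and endothelium had medians between 5.54 and 7.96. Single members of these other sets were higher at the middle doses, with KRT14 at 11.55, COL1A1 at 10.90 and CD14 at 10.22. GAP43 of the noradrenergic set was at 11.16, and the remaining members of the other sets were lower. In bulk RNA, fewer cells with a transcript and less of it per cell cannot be told apart.

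A graded dose response follows a monotonic curve, in which a transcript moves further in 1 direction as the dose increases. A non-monotonic curve turns within the dose range. Such curves are known for stress genes, metabolic enzymes and receptors, whose transcripts can respond to a low exposure and return at a higher one.

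The middle arrays stood together on the second principal component of the probes with an intensity of at least 50 on all 8 arrays. This component held 20.5% of the variance, and the middle arrays lay between 0.18 and 0.51 on it, against −0.43 to −0.15 for the outer arrays. The first component, with 42.6%, ordered the control at one end and 100 μM at the other. With doses ordered in this way, a second component can set the middle against both ends even where each transcript moves in 1 direction. A middle-minus-outer share of the variance can arise in the same way. How far this held here was not tested. Over these 26045 probes, a straight line over the rank of the dose took 38.8% of the variance, the middle-minus-outer difference 19.6%, the remaining dose component 11.9% and the 4 technical differences together 29.7%, or 7.42% each. Correlations between arrays lay between 0.991 and 0.993 for 10 with 50 μM, between 0.984 and 0.988 for middle with outer arrays and between 0.979 and 0.981 for the control with 100 μM. Technical pairs of a dose lay between 0.989 and 0.993, about as close as 10 with 50 μM. The outer doses were the least alike, an order that a graded dose response gives too.

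**Figure D1:**
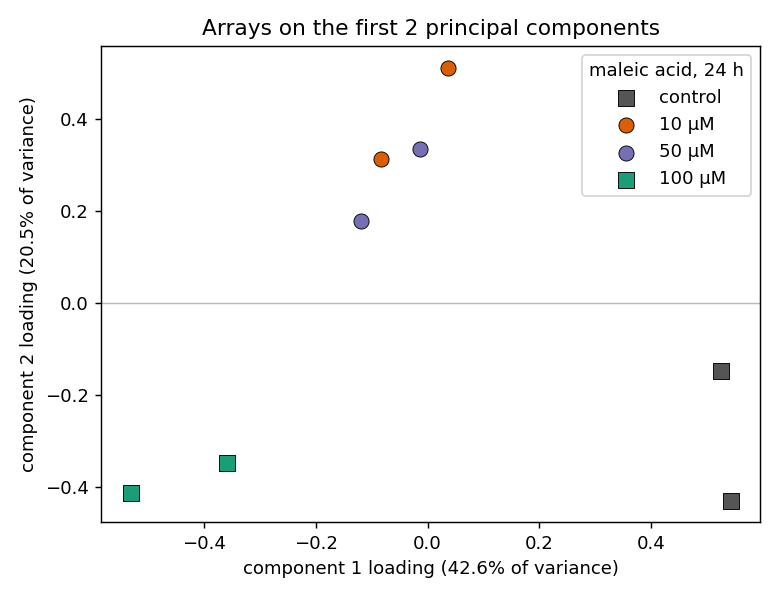
Loadings of the 8 arrays on the first 2 principal components of 26045 probes, circles for the middle doses and squares for control and 100 μM. The middle arrays lie between 0.18 and 0.51 on component 2, above all outer arrays.

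The 2 technical arrays of a dose also differed along this axis. Across the same probes, the difference of technical array 1 minus 2 correlated with the middle-minus-outer difference at r = −0.30 for the control arrays, −0.12 for 10 μM, 0.11 for 50 μM and 0.01 for 100 μM. The median of array 1 minus array 2 in dip probes was 0.11 for the control, 0.07 for 10 μM, −0.09 for 50 μM and −0.11 for 100 μM, and in peak probes −0.11, −0.09, 0.09 and 0.06 in the same order. This is a correlation across probes of shared arrays, and its part in the dips and peaks below was not tested.

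Dips and peaks were many and small. There were 1553 peaks (4.89% of probes) and 1765 dips (5.56%), and the probes with 1 gene symbol among them stood for 1290 and 1425 genes. Among those at or above 50 on all arrays, the 1486 peaks had a median difference of 0.31 on the log2 scale and the 1669 dips one of −0.33. Only 18 peaks (0.0567%) and 6 dips (0.0189%) exceeded 2-fold, and 19 of these 24 had some array under the background level. With scaling to a common median there were 871 peaks and 2152 dips, with no scaling 203 and 45, and with cyclic loess 1749 and 1675.

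Few probes passed a test. In a limma fit over the 8 arrays, with Benjamini-Hochberg adjustment, 23 probes were higher (0.0725%) and 1 was lower (0.00315%) at the middle doses, while 3306 and 4030 had an unadjusted p under 0.05. With 50 added to each intensity before log2, 697 were higher and 778 lower. In limma on the 4 averaged samples, 2 probes were higher (0.0063%) and none lower (0%), against 664 and 764 at an unadjusted p under 0.05. The fit over arrays measures the spread between technical arrays and compares RNA samples, not conditions. For any single probe, an exact permutation test of 2 samples against 2 cannot go below a two-sided p of 0.333.

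The dips and peaks differed little at the highest dose, which their definition largely fixes in advance. Of the 3318 probes, 2876 differed by less than 0.25 on the log2 scale between 100 μM and the control, and 8 differed by over 2-fold. Of all 31741 probes, the fit over 8 arrays called 6148 between 100 μM and the control, and 61 of these were dips or peaks. A probe that differs much between both ends leaves little room for a dip or peak of this kind.

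**Figure D2:**
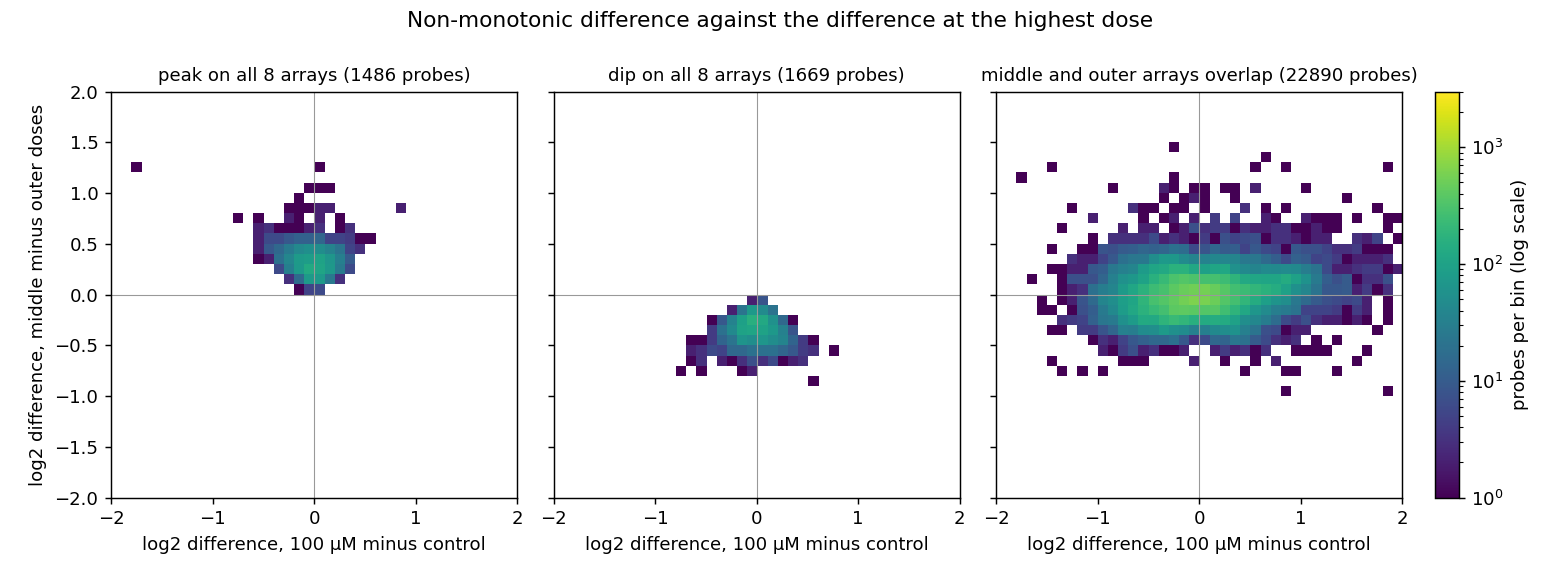
Counts of probes in bins of 0.1, with the log2 difference of 100 μM minus control on the x axis and of middle minus outer doses on the y axis, for 1486 peaks, 1669 dips and the remaining probes at or above background on all arrays (60 probes lie outside the range drawn). Peaks and dips sit near 0 on the x axis, which their definition favours.

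HPRT1, which salvages hypoxanthine and guanine into purine nucleotides and served as the reference gene of the study's qPCR, was a dip. Its probe read 13.99 and 13.60 at 10 μM and 13.77 and 13.65 at 50 μM, against 14.49 and 14.10 in control cells and 14.25 and 14.33 at 100 μM. All middle arrays lay below all outer ones, the nearest pair being 0.11 apart in values of 13.99 and 14.10. The difference was −0.54 (SE 0.12) with an adjusted p of 0.101 from limma, and of 0.0443 with the offset of 50. It did not pass with cyclic loess, median scaling or no scaling. ACTB, a cytoskeletal actin also in common use as a reference, was a peak of 0.19 (SE 0.05, adjusted p = 0.112 over genes). The other 9 of the 11 reference genes measured were neither.

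Promoters are shown for HPRT1, as the dip that was the qPCR reference, and for NASP and CCT2, as peaks described below whose promoters carry CCGGAAG, the core read by ETS family factors. Each runs 5′ to 3′ over the window around the start of the gene in RefSeq (GRCh38.p14), and capitals mark CCGGAAG or its reverse complement. They cover chrX:134459915-134460214, chr1:45583791-45584090 and chr12:69585209-69585508, all on the plus strand.
HPRT1: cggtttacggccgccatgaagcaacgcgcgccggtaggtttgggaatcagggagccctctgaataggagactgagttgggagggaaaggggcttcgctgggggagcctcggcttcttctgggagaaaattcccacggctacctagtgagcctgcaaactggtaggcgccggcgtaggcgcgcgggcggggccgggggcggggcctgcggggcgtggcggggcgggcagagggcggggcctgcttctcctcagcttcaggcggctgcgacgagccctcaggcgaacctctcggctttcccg
NASP: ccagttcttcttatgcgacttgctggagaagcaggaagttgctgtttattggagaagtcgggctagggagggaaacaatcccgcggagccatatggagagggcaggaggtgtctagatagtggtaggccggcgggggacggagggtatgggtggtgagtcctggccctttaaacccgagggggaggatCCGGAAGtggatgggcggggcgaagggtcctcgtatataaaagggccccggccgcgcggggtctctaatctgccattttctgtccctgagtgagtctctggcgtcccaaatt
CCT2: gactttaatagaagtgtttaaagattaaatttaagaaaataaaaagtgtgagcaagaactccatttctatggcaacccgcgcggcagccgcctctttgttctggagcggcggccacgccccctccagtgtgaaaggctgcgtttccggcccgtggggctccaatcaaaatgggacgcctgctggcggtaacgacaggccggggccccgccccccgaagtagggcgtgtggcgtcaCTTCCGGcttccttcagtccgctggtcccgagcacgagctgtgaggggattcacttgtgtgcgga

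The HPRT1 window holds no match, and the NASP and CCT2 windows hold 1 each. NASP and CCT2 were picked for a match and HPRT1 was not, so this difference was fixed by the choice. On both strands, CCGGAAG stood in 10.7% of all 27305 promoters of the table and in 21.3% of the 6135 promoters found for genes of the brightest 2 of 5 equal groups by mean level. Within that bright group, 26.8% of 857 promoters of peak genes, 19.4% of 722 of dip genes and 20.5% of 4590 of genes with neither held it. Of genes whose probes agreed, described next, it stood in 15 of 47 promoters of peak genes (31.9%) and in 2 of 24 of dip genes (8.33%). CCAAT and TATAAA were also counted. In bright peak, dip and other genes, CCAAT stood in 38.0%, 35.6% and 38.4% of promoters, and TATAAA in 4.67%, 5.82% and 4.66%. Level was not matched within the bright group, and its part was not tested. By gene means, peaks were 12.8% and dips 10.0% in its brighter group, against 7.40% and 7.59% in the dimmer one. CCGGAAG was also more frequent with level, at 14.5% of promoters of all array genes and 21.3% of bright ones. These shares are descriptions with no test, and the genes were grouped by values already seen.

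Genes with 2 or more bright probes allow a check within the arrays, since different probes of a gene are separate spots. Of 4372 such genes, 30 had at least 2 dip probes with every bright probe lower at the middle doses. In 52 the same held for peaks, and 49 held both a dip and a peak probe. Among all probes of such genes, 7.12% were dips and 7.04% peaks. How many genes would agree by chance was not tested. The genes with the largest mean difference of each kind are described, chosen after their values were seen. No probe of theirs had an adjusted p under 0.05 in limma over all probes (0.066 to 0.32).

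Of the dips, PDE4C, a phosphodiesterase that breaks down cyclic AMP, differed most. Its first probe read 8.65 and 8.49 at 10 μM and 8.08 and 8.34 at 50 μM, against 9.57 and 9.29 in control cells and 8.80 and 9.01 at 100 μM, a difference of −0.78 (SE 0.11). Its second probe read 7.98 and 7.67 at 10 μM and 7.88 and 8.02 at 50 μM, against 8.56 and 8.40 in control cells and 8.08 and 8.26 at 100 μM, a difference of −0.44 (SE 0.10). On both probes the 100 μM arrays lay between the middle doses and the control. With the offset of 50, limma gave adjusted p-values of 0.0378 and 0.0483. Neither probe passed with cyclic loess, median scaling or no scaling.

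PSD3, an exchange factor for the small GTPase ARF6, differed alike on both probes. The brighter probe read 10.72 and 10.67 at 10 μM and 10.55 and 10.75 at 50 μM, against 11.50 and 11.14 in control cells and 10.98 and 11.15 at 100 μM. Its difference of −0.52 (SE 0.11) stood beside −0.55 (SE 0.09) on the dimmer probe. ATP2B3, a plasma membrane pump that removes calcium from the cell, had −0.56 (SE 0.12) and −0.37 (SE 0.13). SNTB2, a syntrophin of the membrane skeleton, had −0.59 (SE 0.09) and −0.34 (SE 0.12).

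LITAF, a protein of late endosomes, read 13.52 and 12.98 at 10 μM and 13.30 and 13.73 at 50 μM on its brighter probe, against 14.19 and 13.88 in control cells and 14.05 and 14.05 at 100 μM. The differences of its 2 probes were −0.66 (SE 0.16) and −0.47 (SE 0.11). MED1, a subunit of the Mediator complex that links transcription factors to RNA polymerase II, had −0.54 (SE 0.14) and −0.34 (SE 0.09). SLC49A4, a membrane transporter, had −0.48 (SE 0.10) and −0.36 (SE 0.10). LUM, a proteoglycan of connective tissue that is among the fibroblast markers, had −0.43 (SE 0.11) and −0.41 (SE 0.08), while the other 3 fibroblast markers measured were neither dips nor peaks.

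Of the peaks, NASP, a chaperone that supplies histones H3 and H4, read 14.94 and 14.86 at 10 μM and 14.88 and 14.79 at 50 μM on its brighter probe, against 14.28 and 14.65 in control cells and 14.28 and 13.74 at 100 μM. The differences were 0.63 (SE 0.14) and 0.37 (SE 0.09) on its 2 probes. The lowest outer value came from 1 array at 100 μM. MAT2A, which makes the methyl donor S-adenosylmethionine, read 14.78 and 14.82 at 10 μM and 14.92 and 14.70 at 50 μM on its brighter probe, against 14.37 and 14.54 in control cells and 14.55 and 14.41 at 100 μM, a difference of 0.34 (SE 0.09). Its dimmer probe had 0.58 (SE 0.07), with 13.43 to 13.75 at the middle doses and 12.87 to 13.12 at the outer ones.

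CDC45, part of the helicase that opens DNA for replication, differed much between its probes. The dimmer one read 12.17 and 12.07 at 10 μM and 11.81 and 11.62 at 50 μM, against 11.23 and 11.35 in control cells and 11.13 and 10.92 at 100 μM, a difference of 0.76 (SE 0.09). The brighter one had 0.12 (SE 0.07). FKBP3, a nuclear prolyl isomerase, had 0.49 (SE 0.08) and 0.37 (SE 0.09). PITPNB, which carries phosphatidylinositol between membranes, had 0.43 (SE 0.09) and 0.40 (SE 0.08). LRRC61, CGRRF1 and TSPAN9, a tetraspanin, had differences between 0.34 and 0.49 on their probes.

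**Figure D3:**
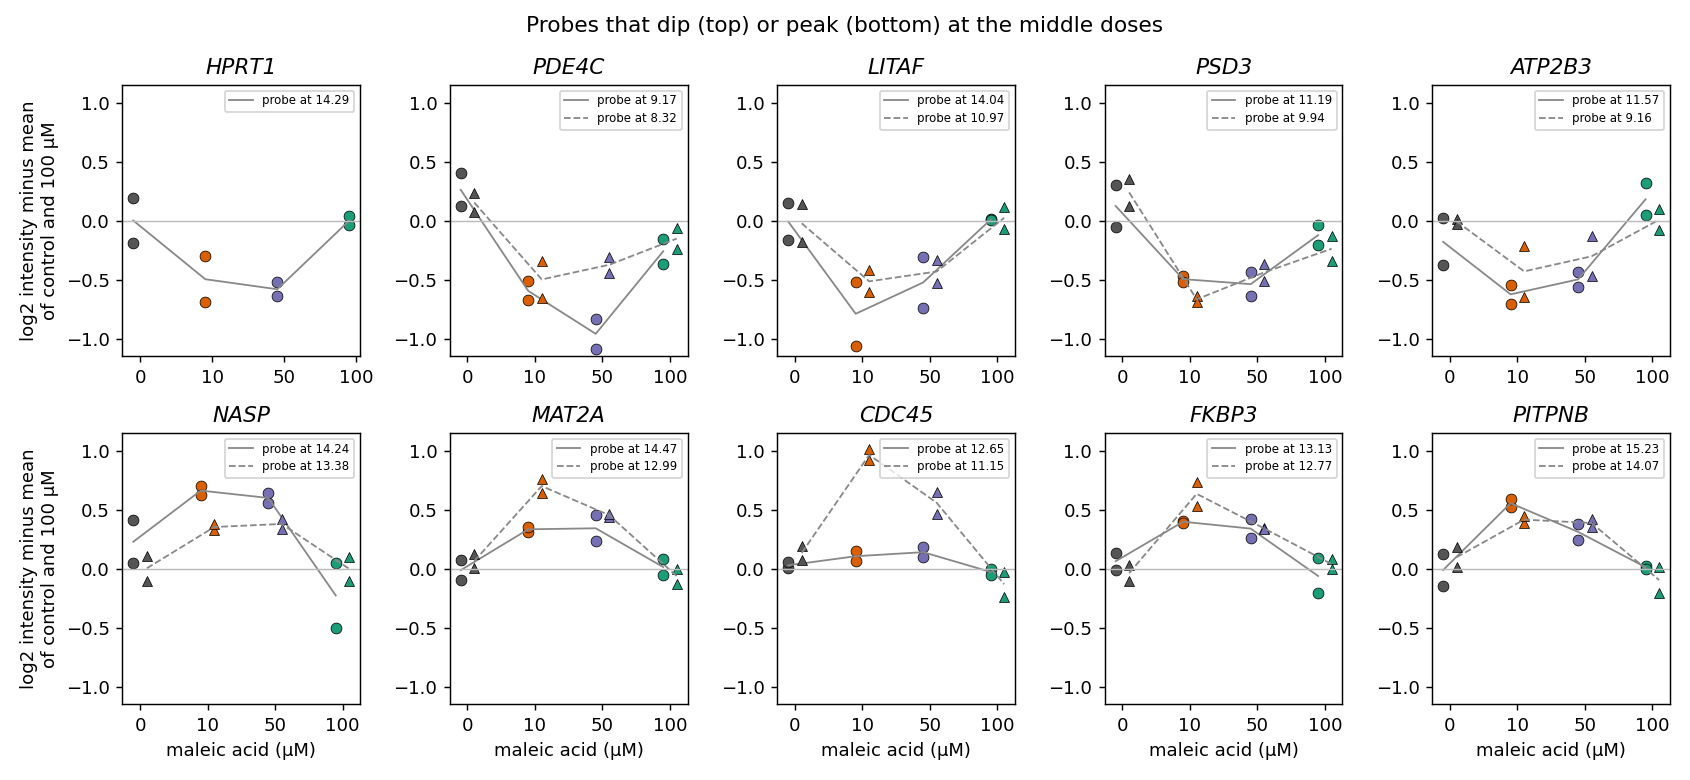
Log2 intensity of each array minus the probe's mean over control and 100 μM, by dose, for HPRT1 (1 probe) and for genes with 2 probes (circles and triangles; lines join dose means, and the legend gives each probe's mean log2 intensity at the outer doses). The top row lies below 0 at 10 and 50 μM and the bottom row above 0.

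Across all genes, probes of 1 gene rarely shared a direction beyond an even split. Over 5799 pairs of bright probes of 4372 genes, the middle-minus-outer differences of both probes had the same sign in 51.1%, with a correlation of 0.044 across pairs. For 100 μM minus control, the same pairs shared the sign in 65.5%, with a correlation of 0.293. For technical array 1 minus 2, the shared sign ranged from 50.1% to 51.3% over the doses.

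Other probes of a gene with a peak probe were themselves peaks in 124 of 803 cases (15.4%), beside 7.04% of all paired probes. Other probes of a gene with a dip probe were dips in 74 of 822 cases (9.0%), beside 7.12%. The median difference of the other probes was 0.02 beside a peak and −0.01 beside a dip. Pairs share arrays and genes, and whether probes of a gene overlap in sequence or read different transcripts was not examined.

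**Figure D4:**
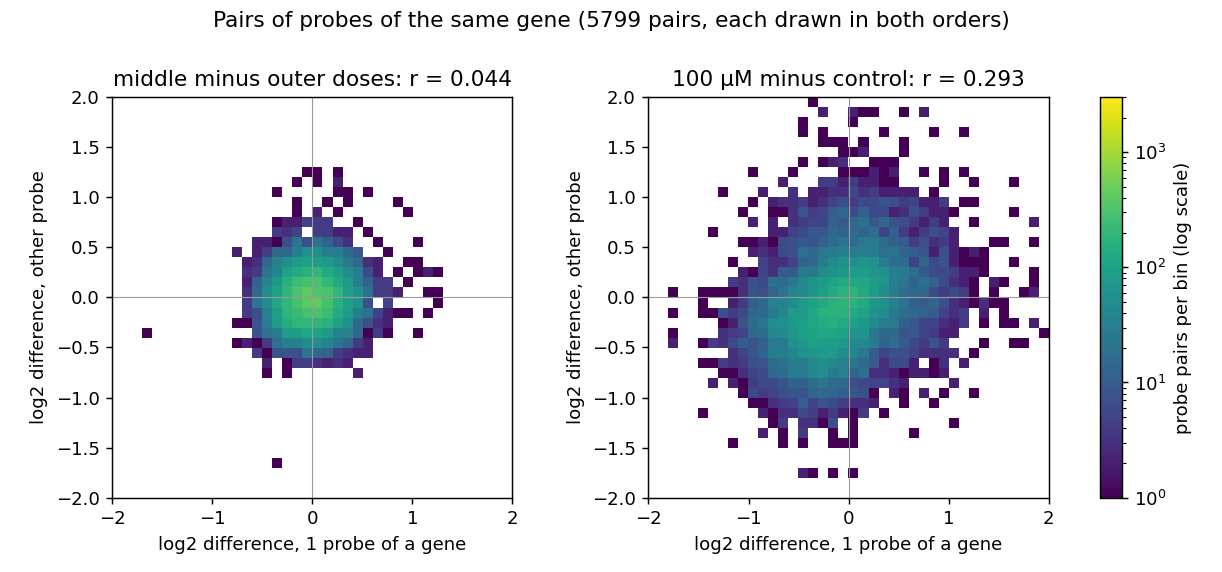
Counts of probe pairs of the same gene in bins of 0.1 on the log2 scale, for the middle-minus-outer difference (left) and the 100 μM minus control difference (right). The left cloud is round (r = 0.044), and the right one leans along the diagonal (r = 0.293).

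In 49 genes a dip and a peak probe stood side by side. AGPAT4, an enzyme of phospholipid synthesis, had 0.55 (SE 0.16) on one probe and −0.53 (SE 0.12) on the other. RPL9, a ribosomal protein, had 0.49 (SE 0.07) and −0.76 (SE 0.14). The brighter RPL9 probe read 15.44 and 15.03 at 10 μM and 14.98 and 14.69 at 50 μM, against 15.94 and 15.66 in control cells and 15.65 and 15.91 at 100 μM. CYLD, a deubiquitinase that restrains NF-κB signalling, had 0.42 (SE 0.08) and −0.54 (SE 0.11).

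Single probes with the widest gap between the sides, also chosen after their values were seen, came from genes of varied roles. Among peaks, HRH3, a histamine receptor of neurons, read 11.69 and 11.43 at 10 μM and 11.67 and 11.70 at 50 μM, against 10.60 and 10.91 in control cells and 10.67 and 10.74 at 100 μM. Its difference was 0.89 (SE 0.10, adjusted p = 0.066 from limma), while its other probe was a dip of −0.18 (SE 0.08). ZNF532, a zinc finger protein, likewise had a peak of 1.02 (SE 0.18) and a dip of −0.30 (SE 0.07). DPYSL5, a growth cone protein, had 0.54 (SE 0.07) on the probe named and 0.03 and −0.01 on its others.

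Peaks with no second probe to compare included LAYN, a hyaluronan receptor, at 0.55 (SE 0.07), SREBF2, which turns on cholesterol synthesis, at 0.48 (SE 0.07), and PIGP, an enzyme of GPI anchor synthesis, at 0.54 (SE 0.08). CACNG2, a subunit that brings AMPA receptors to synapses, had 0.55 (SE 0.10). The SREBF2 probe read 10.58 and 10.60 at 10 μM and 10.82 and 10.64 at 50 μM, against 10.20 and 10.22 in control cells and 10.20 and 10.11 at 100 μM. Control and 100 μM were thus alike, with the middle doses above both.

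Among dips, MAML3, a coactivator of Notch signalling, read 9.33 and 9.34 at 10 μM and 9.28 and 9.35 at 50 μM, against 10.20 and 10.08 in control cells and 9.76 and 9.72 at 100 μM. Its difference was −0.62 (SE 0.07, adjusted p = 0.064 from limma). BASP1, an abundant membrane protein of growing axons, read 15.51 and 15.47 at 10 μM and 15.45 and 15.71 at 50 μM, against 16.08 and 16.07 in control cells and 16.06 and 16.22 at 100 μM. Its difference was −0.57 (SE 0.09), whereas its much dimmer probe had 0.11 (SE 0.09).

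TMEM63C, a membrane channel, had −0.61 (SE 0.09), and ISG20, an interferon-induced exonuclease, −0.52 (SE 0.08). ALCAM, an adhesion molecule of axons, had −0.66 (SE 0.11) on the probe named and 0.04, 0.25 and 0.01 on its other 3. SLC25A4, the ADP/ATP carrier of the inner mitochondrial membrane, had −0.62 (SE 0.14), and its brighter probe −0.19 (SE 0.08). With probes whose mean was under background left out, HRH3, MAML3, LAYN, the dimmer CDC45 probe and the dimmer MAT2A probe passed, with adjusted p-values between 0.0294 and 0.0465. None of them passed with cyclic loess, median scaling or no scaling.

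Most probes that did pass over 8 arrays were set by 1 dose. In 15 of the 24 the means of 10 and 50 μM did not both lie beyond those of the control and 100 μM, 19 overlapped between the sides, and 17 had some array under background. NRCAM, an adhesion molecule of axons, read between 15.16 and 15.37 at the middle doses, against 14.97 and 15.30 in control cells and 3.42 and 2.29 at 100 μM, near the floor of the scale. RPS28, a ribosomal protein, lay between 18.13 and 18.41 at the middle doses, against 18.17 and 18.20 in control cells and 3.42 and 4.69 at 100 μM. The histone gene H4C3 lay between 18.59 and 18.74, against 18.15 and 18.63 in control cells and 14.20 and 14.50 at 100 μM.

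KCNK1, MIS18A, SNAP91, TMEM185A and RBM41 had the same form, near the floor on both 100 μM arrays only. Genes near the floor in the control instead included KIF15, a spindle motor, with 11.15 to 11.31 at the middle doses, against 3.22 and 3.31 in control cells and 10.94 and 10.95 at 100 μM. PTDSS1, which makes phosphatidylserine, read 14.99 and 15.20 at 10 μM but 3.05 and 3.37 at 50 μM, against 4.09 and 3.15 in control cells and 3.42 and 3.31 at 100 μM. These levels near the floor are bounds, and no fold is read from them.

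CHMP4B, a subunit of the ESCRT-III complex that cuts membranes, was the 1 gene that passed with no overlap and with levels clear of background. Its probe read 9.46 and 9.49 at 10 μM and 10.88 and 10.85 at 50 μM, against 9.41 and 9.28 in control cells and 9.37 and 9.35 at 100 μM. The difference of 0.82 (SE 0.07, adjusted p = 0.015 from limma) came from 50 μM, which exceeded 10 μM by 1.39 (adjusted p = 0.0259). The call was lost without either array of 10 or 50 μM and without 100 μM array 1, with adjusted p-values of 0.0633 to 0.0991, as it was with no scaling (0.204), median scaling (0.0621) and the replicate block (0.0669). Its brighter probe read 14.92 to 15.13 at the middle doses, against 14.55 and 14.73 in control cells and 3.42 and 14.36 at 100 μM.

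Both calls from 4 averaged samples rested on arrays near background within a dose. CAT, the catalase that breaks down hydrogen peroxide, read between 11.58 and 11.85 at the middle doses, against 11.36 and 3.72 in control cells and 4.28 and 11.30 at 100 μM. B4GALT2, a galactosyltransferase of the Golgi, read between 13.17 and 13.47, against 12.81 and 5.01 in control cells and 13.04 and 4.46 at 100 μM. The technical arrays of the outer doses disagreed by over 7 log2 units on these spots. The 1 dip that passed over 8 arrays, OR4A16, an olfactory receptor, was under background on all arrays and lost its call without any 1 of the 8 arrays, with adjusted p-values of 0.0513 to 0.179. KLF4, a stress-responsive transcription factor and a dip that did not pass, was also under background on all arrays, with 3.05 to 3.73 at the middle doses and 4.39 to 5.16 at the outer doses.

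Genes were then grouped by function, with the mean over a gene's probes. Of 18255 genes, 16 were higher (0.0876%) and 3 lower (0.0164%) in the 8-array limma fit, and 903 were peaks (4.95%) and 1008 dips (5.52%). Both patterns were more frequent in brighter genes. In the 2 brightest of 5 equal groups, 10.1% were peaks and 8.79% dips, against 1.07% and 1.56% in the dimmest group. Lists of abundant genes are therefore read against the bright genes. That share pools the brightest group, with 12.8% peaks and 10.0% dips, and the next, with 7.40% and 7.59%. A list with its median level in the brightest group, from 12.1, is thus set beside a share lower than that of its own group. The chaperones, at a median of 14.57, are an example. Over the 33 lists, the members that passed were RPS28, H4C3 and OR4A16.

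Protein folding genes held both patterns. Of the 8 subunits measured of the CCT chaperonin, which folds actin and tubulin, TCP1, CCT2, CCT3, CCT5 and CCT7 were peaks, with differences of 0.15 to 0.42. TCP1 read 13.08 and 13.14 at 10 μM and 13.37 and 13.20 at 50 μM, against 12.70 and 12.85 in control cells and 12.89 and 12.67 at 100 μM. CCT4 and CCT8 had 0.01 and 0.05, and CCT6A −0.39 with overlapping arrays. HSPA1A and HSPA1B, inducible HSP70 genes of nearly identical sequence whose probes may read both, were dips of −0.24 (SE 0.07) and −0.42 (SE 0.06). The list of 23 chaperones held 5 peaks and 2 dips (21.7% and 8.70%). Bright genes had 10.1% and 8.79%, and the brightest group 12.8% and 10.0%.

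Of 39 proteasome subunits, 5 were peaks and 1 a dip (12.8% and 2.56%). The peaks lay near the 10.1% of bright genes and at the 12.8% of the brightest group. PSMD7, of the regulatory lid, read 14.23 and 14.18 at 10 μM and 14.20 and 14.07 at 50 μM, against 13.67 and 13.93 in control cells and 13.87 and 13.57 at 100 μM. PSMC5, PSMD10, PSMD12 and PSMC3 had 0.20 to 0.35, and PSMA5 −0.16. Of 51 splicing and hnRNP genes, 6 were peaks, led by SRSF5 at 0.52 (SE 0.15), and 1, SRSF1, was a dip of −0.32 (SE 0.09), or 11.8% and 1.96%. The median difference was 0.02 over the proteasome list and −0.03 over the splicing list, beside −0.01 over all genes. List medians given here are those after quantile normalization. Of the 33 list medians, 14 were counted as moved with median scaling and 14 with no scaling.

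Of 74 mitochondrial ribosomal proteins, 13 were peaks and 6 dips (17.6% and 8.11%, beside 10.1% and 8.79% of bright genes), with examples in MRPL54 at 0.44 (SE 0.11) and MRPL42 at −0.41 (SE 0.09). Of 31 genes of ATP synthase and cytochrome c oxidase, 6 were peaks and 3 dips (19.4% and 9.68%). ATP5F1E, a subunit of ATP synthase, read 13.51 and 13.42 at 10 μM and 13.15 and 13.02 at 50 μM, against 12.69 and 12.83 in control cells and 12.91 and 12.60 at 100 μM. ATP5MG, another subunit of that enzyme, was a dip of −0.46 (SE 0.09). Of 36 complex I genes, 3 were peaks and 1, NDUFB11, was a dip of −0.38 (SE 0.07), shares of 8.33% and 2.78% that lay below those of bright genes. The 75 cytosolic ribosomal proteins, which make up the ribosome outside mitochondria, held 2 peaks and 2 dips (2.67% each).

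Of 17 genes of purine synthesis and salvage, 4 were dips and 1 a peak (23.5% and 5.88%, beside 8.79% and 10.1% of bright genes), and the median difference over the list was −0.06. Beside HPRT1, ATIC, which completes the purine ring, had −0.37 (SE 0.11), and APRT, the salvage enzyme for adenine, −0.22 (SE 0.09). IMPDH1, which leads to guanine nucleotides, had −0.15 (SE 0.05), and ADSS2, on the branch to AMP, was a peak of 0.39 (SE 0.11). Of 15 aminoacyl tRNA synthetases, which charge tRNAs with amino acids, IARS1, NARS1 and CARS1 were dips of −0.24 to −0.43 (20.0%) and none was a peak, although the median over this list was 0.02.

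Of 22 genes of synaptic vesicle release, 12 were in the 2 brightest groups. SNAP25, RIMS2, SYP and SYN2 were dips of −0.17 to −0.28 (18.2%, beside 5.52% of all genes and 8.79% of bright genes). None was a peak, beside 4.95% of all genes and 10.1% of bright genes. The 25 genes of the neuronal cytoskeleton held 2 dips and 1 peak (8.0% and 4.0%), both below the shares of bright genes. DCX, a microtubule protein of migrating neurons, read 14.34 and 14.12 at 10 μM and 14.24 and 14.55 at 50 μM, against 14.78 and 14.69 in control cells and 14.82 and 14.86 at 100 μM. MAP1B, another microtubule protein, was a dip of −0.33 (SE 0.08), and DPYSL3 a peak of 0.28 (SE 0.07). Of the 20 noradrenergic identity genes, 10.0% in either direction, ALK and HAND1 were dips of −0.49 (SE 0.13) and −0.46 (SE 0.14), and LMO1 and ISL1 peaks of 0.47 (SE 0.08) and 0.31 (SE 0.06). TH, which makes the precursor of noradrenaline, had 0.75 (SE 0.24) with overlapping arrays.

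Glutathione synthesis starts with glutamate-cysteine ligase, whose 2 subunits differed in opposite directions. GCLM, the modifier subunit, read 8.19 and 8.18 at 10 μM and 8.17 and 8.20 at 50 μM, against 9.13 and 8.95 in control cells and 8.49 and 8.38 at 100 μM. It was a dip of −0.55 (SE 0.07, adjusted p = 0.0784 over genes from limma), and passed with 0.0460 when dim probes were left out and 0.0354 with the offset. It did not pass with cyclic loess, median scaling or no scaling. GCLC, the catalytic subunit, read 10.42 and 10.67 at 10 μM and 9.31 and 9.47 at 50 μM, against 9.96 and 8.73 in control cells and 8.29 and 8.64 at 100 μM. Its arrays overlapped between the sides, and its difference of 1.06 (SE 0.26) had an adjusted p of 0.0961. With the offset of 50, limma gave 0.98 (adjusted p = 0.0482), and without control array 1 the difference was 1.34. GCLC did not pass with cyclic loess, median scaling or no scaling.

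Of 37 glutathione and thiol genes, 4 were peaks and 3 dips (10.8% and 8.11%), shares near those of bright genes, with GSS, the enzyme after the ligase, a peak of 0.31 (SE 0.07) and GPX1, a glutathione peroxidase, one of 0.27 (SE 0.07). Of 26 NRF2 targets, 13 of them bright, GCLM and FTH1, the ferritin heavy chain, were dips and none was a peak. The dips were 7.69%, beside 5.52% of all genes and 8.79% of bright genes. Of 31 genes induced by unfolded proteins or through ATF4, PPP1R15A at 0.45 (SE 0.09) and TRIB3 at 0.20 (SE 0.07) were peaks and none was a dip. The peaks were 6.45%, beside 4.95% of all genes and 10.1% of bright genes. MT1X, a metallothionein, was a peak of 0.47 (SE 0.07), and SOD2, the mitochondrial superoxide dismutase, a dip of −0.40 (SE 0.08).

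Of 34 replication and cell cycle genes, 4 were dips and 2 peaks (11.8% and 5.88%, beside 8.79% and 10.1% of bright genes). PCNA, the sliding clamp, was a dip of −0.48 (SE 0.10), and BUB1, GINS2 and RRM1 were dips as well, while CDC45 and CDC20 were peaks. PCNA read 15.83 and 15.71 at 10 μM and 15.64 and 16.03 at 50 μM, against 16.48 and 16.43 in control cells and 16.11 and 16.11 at 100 μM. In cholesterol synthesis, SREBF2, NSDHL and SQLE were peaks of 0.39 to 0.48 and SC5D was a dip of −0.31 (SE 0.10), of 21 genes (14.3% and 4.76%). In glycolysis, HK2, which traps glucose in the cell, was a dip of −0.52 (SE 0.12), PFKM one of −0.28 (SE 0.07), and PFKL a peak of 0.20 (SE 0.06). The elongation factors EEF1A2 and EEF1B2 were a dip of −0.48 (SE 0.09) and a peak of 0.30 (SE 0.06). The 58 translation factors held 5 dips and 4 peaks (8.62% and 6.90%).

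Of the gene families, the 474 ZNF genes, of a median level like that of all genes (9.23 against 9.25), held 19 peaks and 23 dips, or 4.01% and 4.85% beside 4.95% and 5.52% of all genes. Of families with lower levels, the 287 olfactory receptors held 11 and 6, the 60 keratin-associated proteins 0 and 1, and the 53 histone genes none. The counts of the 18 lists of which at least 75% were bright genes were set beside the share over all bright genes. None of these counts was tested, and the lists were chosen with results of these data known.

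**Figure D5:**
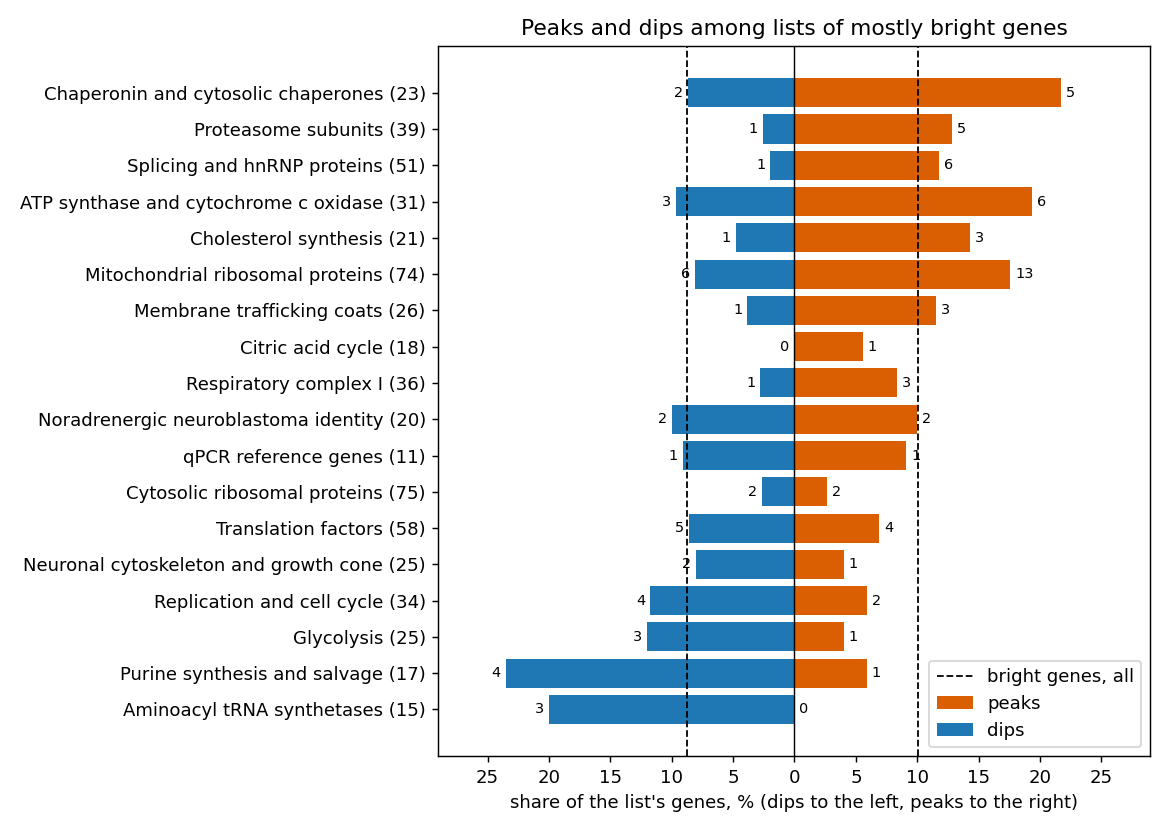
Share of each list's genes that were peaks (right, orange) or dips (left, blue), for 18 lists of mostly bright genes, with counts at the bars and list sizes in brackets; dashed lines mark 10.1% and 8.79% of all bright genes. Chaperones lie at the top with 5 peaks and 2 dips, and aminoacyl tRNA synthetases at the bottom with 0 and 3.

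The other genes that the study followed by qPCR did not stand apart at the middle doses. The GGT5 probe, for a gamma-glutamyltransferase, read 12.08 and 11.54 at 10 μM and 11.87 and 11.89 at 50 μM, against 11.15 and 11.23 in control cells and 12.47 and 12.02 at 100 μM. Its difference was 0.13 (SE 0.15), and the arrays overlapped. Averaged over their probes, GRIA1, an AMPA receptor subunit, had −0.09, S100A3, a calcium-binding protein, −0.02, and GNRHR, the receptor of gonadotropin-releasing hormone, −0.01. Scaling turned the sign of all 4: with a common median they had −0.0044, 0.17, 0.51 and 0.43 in this order, where the median over all probes was 0.10.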

How the data were processed

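RNA of SH-SY5Y cells at 4 doses was hybridised to 8 arrays, 2 technical arrays per dose. Per the labels, the authors extracted spot intensities with GenePix, left out spots with a flag below 0 and used Rosetta Resolver, with scaling to a common median named as the normalization. The deposited intensity values are linear, of 31741 probes, with array medians that nevertheless differ, from 336 to 524, and up to 188 values on 1 array that are not above 0. How their background was handled is not stated in the labels or methods. With 1 RNA sample per dose, the spread between cultures was not measured, and the number of arrays limits the precision between technical arrays.

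A floor of 1 was applied before taking log2, and arrays were then quantile normalized with limma 3.58.1 in R 4.3.3. Plots were drawn with matplotlib 3.10.9 in Python 3.11.15. The middle-minus-outer difference was tested two-sided with limma on 4 averaged samples and on 8 arrays with 1 mean per dose, at an adjusted p of 0.05. Scripts were tested on simulated data. Of the probes, 24658 had 1 symbol in the platform annotation (2177 updated through RefSeq names), 1002 had several and 6081 none; only the first were named.

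The naming rule took up to 12 called, non-overlapping, bright probes per direction, up to 3 called members of each list and the 5 qPCR genes. It left CHMP4B, RPS28, H4C3, OR4A16 and the qPCR genes, and the other genes were chosen after their values were seen. The comparison and the lists were chosen with earlier results of these data known. Alternatives were other scalings, a dim-probe filter, an offset, a curvature contrast, each array left out, the replicate block and, added after seeing the data, an adjusted p of 0.1 and only probes at 50 or more on all arrays.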

Additional observations from a re-analysis of the deposited data

Results flagged for a closer look

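In 11 of 336 groups of 4 arrays (3.27%), 1 array stood apart from the other 3 of its side by Dixon's criterion. Chance meets it in about 1 of 20 groups of 4 independent values. Each group here joins 2 doses with 2 technical arrays each, and many probes were chosen for their values. That rate is therefore no reference for the share. At the middle doses these were ALCAM with 8.77 on 50 μM array 1, HRH3 with 11.43 on 10 μM array 2, the first LRRC61 probe with 13.85 on 50 μM array 1, the peak probe of RPL9 with 13.75 on 10 μM array 1, and TH with 12.38 on 10 μM array 1. At the outer doses they were BASP1 with 16.22 and EEF1A2 with 17.64 on 100 μM array 2, STK24 with 9.22, BUB1 with 12.75 and SRSF5 with 11.86 on control array 1, and ADSS2 with 14.15 on control array 2.

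The effects of 10 and 50 μM against the outer doses differed for 2 of 95 probes, by the 50 μM minus 10 μM contrast of the 8-array limma fit with Benjamini-Hochberg adjustment over all probes. CHMP4B was higher at 50 μM by 1.39 (adjusted p = 0.0259). PTDSS1 had a fitted difference of −11.9 (adjusted p = 1.1e-04), which is not read as a fold, since both 50 μM arrays were under background, at 3.05 and 3.37.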

How the results depend on the processing

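Main counts were 23 higher and 1 lower over 8 arrays, 2 and 0 over 4 samples, 18 peaks and 6 dips over 2-fold, 3 list genes that passed and 1 probe that met the first criterion for naming, counted before its limit of 12 per direction. In the same order, cyclic loess gave 5 and 0, 0 and 0, 39 and 2, 0, and 2. Median scaling gave 13 and 0, 0 and 0, 139 and 2, 0, and 0. No scaling gave 2 and 0, 511 and 3, 69 and 0, 0, and 0. Leaving out dim probes gave 40 and 6, 2 and 0, 14 and 1, 3, and 8. The offset of 50 gave 697 and 778, 2 and 0, 11 and 0, 100, and 937. Curvature over the dose in μM gave 12 and 1, 0 and 0, 17 and 7, 1, and 1. Only probes at 50 or more gave 10 and 2, 0 and 0, 5 and 0, 1, and 4. An adjusted p of 0.1 gave 539 and 639. The replicate block gave 15 and 0 over 8 arrays, 2 list genes and 0 probes by that criterion, and the numbers did not pair the samples, with correlations of −0.20 to 0.16.

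Leaving out 1 array gave 13 to 55 higher and 1 to 8 lower probes over 8 arrays, 0 to 2 and 0 over 4 samples, 15 to 71 peaks and 5 to 19 dips over 2-fold, 1 to 5 list genes and 0 to 11 probes by that criterion. Without 100 μM array 2 there were 55 higher probes and 71 peaks over 2-fold, and without 50 μM array 2 there were 13 higher probes. With 1 array left at a dose, it was assumed to vary like the others.

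OR4A16 turned to 0.68 with median scaling and with no scaling, and PTDSS1 to −0.0010 under curvature. GGT5 had −0.0044 and −0.0019, GRIA1 0.17 and 0.17, GNRHR 0.43 and 0.44, and S100A3 0.51 and 0.52 with median and no scaling. With cyclic loess GNRHR had 0.054 and S100A3 0.15, and under curvature GNRHR had 0.031. S100A3 had 0.11 with dim probes left out, 0.021 with the offset and 0.11 with only probes at 50 or more, where GRIA1 had 0.083. With 1 array left out, GNRHR ranged from −0.10 to 0.070, S100A3 from −0.077 to 0.037 and GGT5 from −0.0067 to 0.26. The other named probes and genes that were run kept their sign under every alternative. Of the 33 list medians, 14 were counted as moved and 19 as the same with median scaling, and likewise with no scaling. Under curvature 1 was counted as moved, and with cyclic loess all 33 as the same. The further probes given for HRH3, ZNF532, DPYSL5, BASP1, ALCAM, SLC25A4 and CHMP4B were not run under the alternatives. The causes were not tested. Signals under background limit what can be said of KLF4, OR4A16 and probes near the floor.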
